A study of Mus musculus with 6 samples.

Results

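Kit and Flt3 are the receptor tyrosine kinases through which stem cell factor and Flt3 ligand act on haematopoietic stem cells (HSCs) and early progenitors. They are described here with 6 genes whose products act directly on such receptors: the Cbl and Cblb ubiquitin ligases, the adaptor Grb2, the SH2-domain phosphatases Ptpn11 (SHP-2) and Ptpn6 (SHP-1), and the Src-family kinase Lyn. The 8 genes were taken as the rows of the deposited expression table with exactly these symbols, 8 of 46959 rows, and each symbol named 1 row.

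When its ligand binds, a type III receptor tyrosine kinase such as Kit or Flt3 dimerises, phosphorylates its own cytoplasmic tyrosines and recruits proteins with SH2 domains, among them Grb2, SHP-1, SHP-2 and Src-family kinases. Cbl proteins are recruited in the same way and attach ubiquitin to the receptor, which sends it into the endosome and on to the lysosome. In bone marrow, Kit is carried by HSCs and most early progenitors, while Flt3 appears as HSCs give way to multipotent and lymphoid-primed progenitors.

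The study deleted Maea, a subunit of an E3 ubiquitin ligase, in blood cells of mice and asked what the loss does to HSCs. RNA was sequenced from sorted bone marrow HSCs of 3 control and 3 MaeaCsf1r-Cre libraries, each made from about 2000 cells pooled from 2 mice. MaeaCsf1r-Cre mice carry floxed Maea alleles and the Csf1r-Cre transgene on a C57BL/6 background, and the controls were their littermates, whose alleles the labels give only as control. The mice were young adults of both sexes, 8 weeks old by the design text of the series, while the methods give a wider range of weeks. The Csf1r promoter that drives the Cre is best known from mononuclear phagocytes, and the study found that it also recombines in HSCs. HSCs were sorted as lineage- Sca-1+ c-Kit+ CD150+ CD48- cells, so the Kit protein was part of the gate in both groups. The table holds RNA levels only, in CPM, the reads of a gene scaled to the depth of its library, and says nothing of the amount of receptor on the cell surface.

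The libraries rested on 32923000 to 39558000 reads in control and 44097000 to 60866000 reads in MaeaCsf1r-Cre samples, so that 3 reads corresponded to 0.0493 to 0.0911 CPM. Maea itself was at 108, 116 and 123 CPM in control replicates 1, 2 and 3 and at 76.9, 88.6 and 101 CPM in MaeaCsf1r-Cre replicates 1, 2 and 3. It was lower in every MaeaCsf1r-Cre library than in every control library, with a log2 fold change of -0.39 (standard error, SE, 0.13, limma Benjamini-Hochberg adjusted p = 0.967 over all genes tested). The values cover the whole gene and do not separate the deleted exons. Of 12955 genes with at least 1 CPM in at least 3 libraries, 1 passed an adjusted p of 0.05 in limma, and 517 had an unadjusted p under 0.05. HSC markers were present in all 6 libraries, with a sum over 11 genes of 508 to 933 CPM in control and 345 to 796 CPM in MaeaCsf1r-Cre libraries. The lowest sum was that of MaeaCsf1r-Cre replicate 1.

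In GRCm38 (mm10), Kit lies at chr5:75574916-75656722 on the plus strand and Flt3 at chr5:147330741-147400489 on the minus strand. Ptpn11 lies between them at chr5:121130533-121191397 on the minus strand. Maea, at chr5:33335509-33373296, is on the same chromosome, 42.2 Mb from the start of Kit, 87.8 Mb from Ptpn11 and 114 Mb from Flt3. The 826 tested genes of chromosome 5 had a median log2 fold change of -0.05, against -0.06 over all genes tested. The remaining genes are on other chromosomes: Cbl at chr9:44142976-44234049 (minus), Cblb at chr16:52031225-52208048 (plus), Grb2 at chr11:115644045-115708597 (minus), Ptpn6 at chr6:124720707-124738714 (minus) and Lyn at chr4:3678115-3813122 (plus).

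Both receptors, both ligases and both phosphatases are paralogous pairs, so the coding sequences were compared to see whether reads of 150 bases could be assigned to the wrong member. The longest stretch of identical bases is printed for each pair from the GENCODE transcripts of GRCm38, 5′ to 3′, with the shared run in capitals inside its own context in lower case. The receptors share at most 20 consecutive bases, in the sequence that encodes their tyrosine kinase domain, at coding positions 2020 to 2039 of Kit and 2077 to 2096 of Flt3.
Kit: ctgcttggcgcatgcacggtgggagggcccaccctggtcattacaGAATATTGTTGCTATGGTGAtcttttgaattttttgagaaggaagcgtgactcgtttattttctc
Flt3: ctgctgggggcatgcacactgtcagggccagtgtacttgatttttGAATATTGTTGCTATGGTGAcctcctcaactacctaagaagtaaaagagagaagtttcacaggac

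The ligases also share at most 20 consecutive bases, at coding positions 709 to 728 of Cbl and 691 to 710 of Cblb, in the sequence for the domain that binds phosphorylated kinases.
Cbl: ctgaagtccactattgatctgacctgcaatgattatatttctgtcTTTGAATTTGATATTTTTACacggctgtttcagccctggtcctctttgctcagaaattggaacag
Cblb: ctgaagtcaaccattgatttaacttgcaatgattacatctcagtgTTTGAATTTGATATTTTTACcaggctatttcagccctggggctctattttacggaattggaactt

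The phosphatases share at most 17 consecutive bases, at coding positions 571 to 587 of Ptpn11 and 568 to 584 of Ptpn6, in the sequence for their second SH2 domain.
Ptpn11: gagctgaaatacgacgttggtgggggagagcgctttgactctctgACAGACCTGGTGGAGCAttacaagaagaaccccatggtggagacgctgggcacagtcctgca
Ptpn6: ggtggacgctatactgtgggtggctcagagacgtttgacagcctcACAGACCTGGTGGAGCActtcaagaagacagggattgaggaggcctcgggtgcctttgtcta

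Over the aligned coding bases the receptors were 62.6% identical, the ligases 68.5% and the phosphatases 64.1%. In each pair the longest shared run is far shorter than a read. Of all 75-base windows of a transcript, 0 of Kit, Flt3, Cblb and Ptpn11, 0.921% of Cbl, 4.59% of Grb2, 5.68% of Ptpn6 and 17.3% of Lyn also occurred in the transcripts of another gene. For Lyn these were Gm11787, listed at 0.0355 CPM or less, and Gm26857, listed at 0.46 to 1.05 CPM. Lyn overlaps Gm26857, and Ptpn6 overlaps Gm20531, on the opposite strand over 248 and 195 exonic bases, and the libraries do not keep strand. Gm20531 was listed at 2.18 to 3.52 CPM and the Grb2-sharing Gm12791 at 4.78 to 5.80 CPM, small beside the levels of Ptpn6 and Grb2, both near 100 CPM or above in every library.

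Levels were compared between genes as CPM per kilobase of exon. In control HSCs Kit was highest at 116 ± 15.3 CPM per kb (SD, n = 3), above 95.7% of the genes tested. Ptpn6 at 50.7 ± 8.35 and Grb2 at 45.8 ± 4.90 CPM per kb followed, and their libraries overlapped. Flt3 at 20.2 ± 11.9 and Lyn at 17.9 ± 1.49 CPM per kb came next, again with overlapping libraries. Ptpn11 was at 10.3 ± 1.27 CPM per kb. The 2 ligases were the lowest of the 8 genes, Cbl at 2.95 ± 0.230 and Cblb at 2.48 ± 0.405 CPM per kb, and could not be ordered from their ranges. At every other step of this order the ranges of adjacent genes were separate.

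In MaeaCsf1r-Cre HSCs Flt3 stood at 7.88 ± 3.13 CPM per kb (SD, n = 3), with every library below those of Lyn at 16.6 ± 2.91 CPM per kb and overlapping Ptpn11 at 9.29 ± 0.811 CPM per kb. Flt3 overlapped Ptpn11 in control libraries too, where its range was 9.42 to 32.9 CPM per kb. Kit stayed at the top at 89.2 ± 16.4 CPM per kb, and no library of any other member reached its lowest library in either group. Cblb at 2.53 ± 0.450 and Cbl at 2.48 ± 0.381 CPM per kb remained lowest and overlapped.

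**Figure D1:**
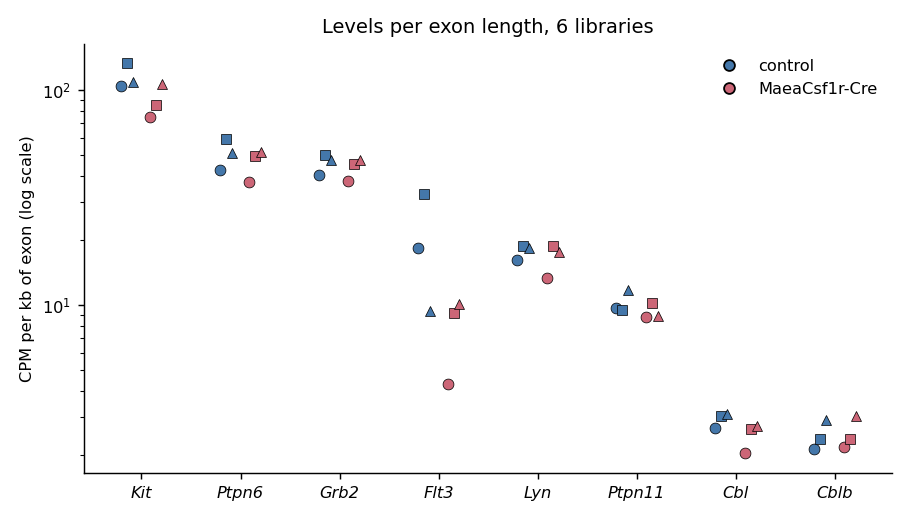
Level of each of the 8 genes in CPM per kb of exon (log axis) in 3 control (blue) and 3 MaeaCsf1r-Cre (red) HSC libraries, with circles, squares and triangles for replicates 1, 2 and 3. Kit is highest in every library and Cbl and Cblb are lowest, and Flt3 has the widest scatter, from 4.30 to 32.9 CPM per kb.

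None of the 8 genes passed the test between genotypes. All 8 were tested, and 0 had an adjusted p under 0.05 (limma on log2(CPM + 1), Benjamini-Hochberg over all genes tested), where 0.00772% of all genes tested did. At an unadjusted p under 0.05 the count was 1 of 8, against 3.99% of all genes, of which 3.19% were lower. Fold changes are on the log2(CPM + 1) scale throughout. The estimate was below 0 for 7 of the 8 genes, with a median of -0.14, while 60.9% of all genes tested were below 0. Kit, Cbl, Grb2 and Lyn were lower in the MaeaCsf1r-Cre library of all 3 same-numbered pairs, 4 of 8 genes where 23.5% of all genes were, and 0 of 8 were higher in all 3 pairs, where 13.2% were. Some of the pairs counted as lower were nearly level between control and MaeaCsf1r-Cre. Grb2 was at 137 and 136 CPM in replicate 3, Lyn at 65.6 and 65.5 CPM in replicate 2, and Kit at 573 and 562 CPM in replicate 3. The 2 groups overlapped for each of the 8 genes, and they were separate for 8.55% of all genes tested.

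The receptors had the largest estimates. Kit was at 551, 700 and 573 CPM in control replicates 1, 2 and 3 and at 393, 450 and 562 CPM in MaeaCsf1r-Cre replicates 1, 2 and 3. MaeaCsf1r-Cre replicates 1 and 2 lay below every control library, while replicate 3 lay above control replicate 1. The means were 608 ± 80.4 and 468 ± 86.2 CPM (SD, n = 3 each), with an estimated log2 fold change of -0.38 (SE 0.17, 95% interval -0.77 to 0.0011, limma adjusted p = 0.967). In same-numbered pairs the log2 differences were -0.49, -0.64 and -0.03. When same-numbered libraries were blocked the interval was -0.69 to -0.08, and the adjusted p was 0.281. A correction for exon length moved the estimate to -0.23, without or with the block. Of all genes tested, 11.9% had an estimate as low or lower. At least 18146 reads lay behind each Kit value, so that counting error was at most 0.742% of it, well under the spread between libraries.

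Flt3 was at 67.2, 120 and 34.4 CPM in control replicates 1, 2 and 3 and at 15.7, 33.7 and 37.0 CPM in MaeaCsf1r-Cre replicates 1, 2 and 3. Control replicates 1 and 2 were above all other libraries and MaeaCsf1r-Cre replicate 1 was below them, while control replicate 3 fell among the MaeaCsf1r-Cre libraries. The means were 74.0 ± 43.4 and 28.8 ± 11.4 CPM (SD, n = 3 each), and the estimated log2 fold change was -1.24 (SE 0.47, 95% interval -2.32 to -0.16, limma adjusted p = 0.967). That is 0.422 of the control level, with an interval of 0.20 to 0.892, and only 0.347% of the genes tested had an estimate as low or lower. The replicate block left the adjusted p at 0.265.

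The estimate for Flt3 was carried by part of the libraries. The pairs of replicates 1 and 2 differed by -2.03 and -1.81 on the log2 scale, and the pair of replicate 3 by 0.10. Without control replicate 2 the log2 fold change was -0.81, and without control replicate 3 it was -1.70. Within groups Flt3 had an SD of 0.78 on the log2 scale, greater than that of 97.7% of the genes tested, against 0.23 for Kit. Its highest and lowest libraries were 7.65-fold apart, and those of Kit 1.78-fold. The fewest reads behind a Flt3 value were 958, a counting error of 3.23%.

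Relative to Kit in the same library, Flt3 stood at -3.02, -2.53 and -4.02 on the log2 scale in control replicates 1, 2 and 3 and at -4.56, -3.70 and -3.89 in MaeaCsf1r-Cre replicates 1, 2 and 3. Control replicate 3 again fell among the MaeaCsf1r-Cre libraries. The means differed by -0.86 (exact permutation test, two-sided, p = 0.3, 0.45 adjusted over 3 ratios). With 3 libraries a group, the smallest p this test allows is 0.1. The difference was -0.53 without control replicate 2 and -1.28 without control replicate 3.

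**Figure D2:**
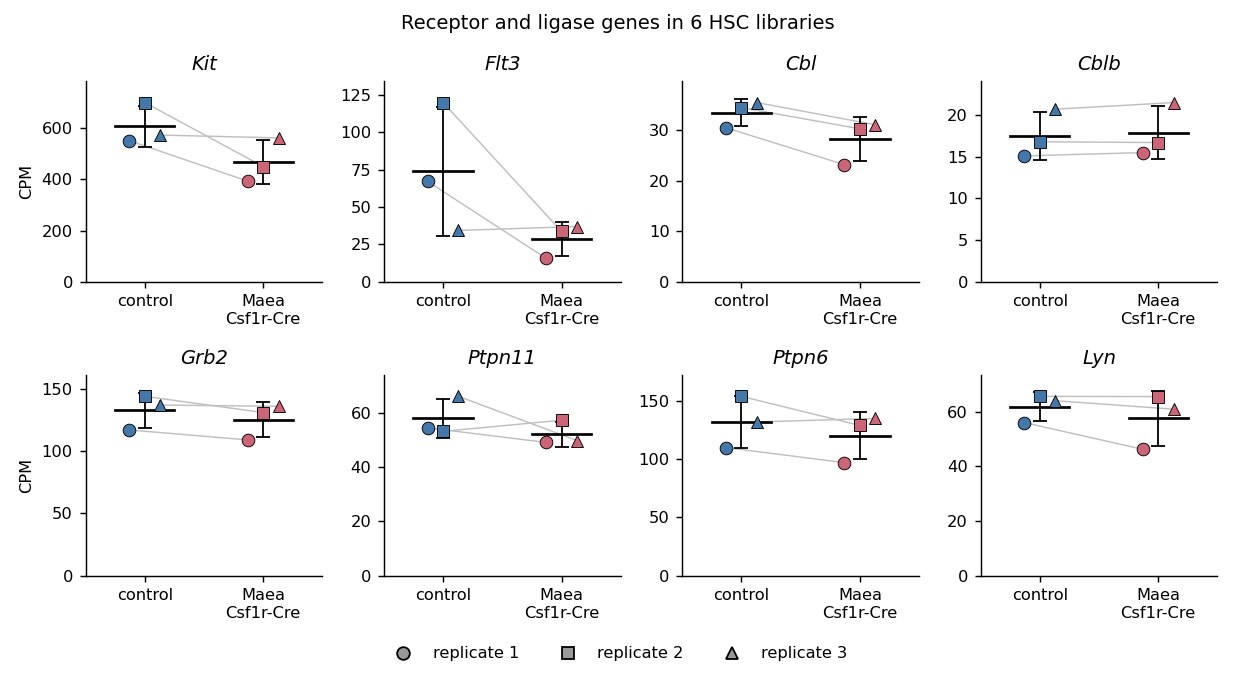
CPM of the 8 genes in 3 control (blue) and 3 MaeaCsf1r-Cre (red) HSC libraries on axes from 0, with circles, squares and triangles for replicates 1, 2 and 3, black bars for the mean and SD, and grey lines joining libraries of the same replicate number. The groups overlap in every panel, and Flt3 spans 15.7 to 120 CPM with control replicate 3 at 34.4 CPM.

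Bulk RNA cannot separate fewer Flt3-expressing cells within the gate from less Flt3 RNA per cell, so the markers of neighbouring cell types are given beside it. Of the 9 lymphoid-primed progenitor markers, 6 were tested, 5 of them had a log2 fold change below 0, the median was -1.19, and 0 passed the adjusted threshold. Their summed level was 128 to 236 CPM in control and 85.7 to 129 CPM in MaeaCsf1r-Cre libraries. Dntt, the template-independent DNA polymerase of lymphoid progenitors, was at 24.7, 17.9 and 5.85 CPM in control replicates 1, 2 and 3 and at 1.26, 1.13 and 4.89 CPM in MaeaCsf1r-Cre replicates 1, 2 and 3. As with Flt3, control replicate 3 was the lowest control library. Il7r, the interleukin-7 receptor, was below the filter. It was at 0.394, 0.152 and 0 CPM in control replicates 1, 2 and 3 and at 0 in every MaeaCsf1r-Cre library.

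Cd48, whose protein was gated out of the HSCs, was at 33.5, 19.4 and 12.4 CPM in control replicates 1, 2 and 3 and at 46.5, 22.1 and 15.8 CPM in MaeaCsf1r-Cre replicates 1, 2 and 3. It was thus higher in the MaeaCsf1r-Cre library of each pair, as 13.2% of all genes tested were. The groups overlapped, and its log2 fold change was 0.32 (SE 0.44, limma adjusted p = 0.967). Macrophage markers summed to 34.8 to 89.2 CPM in control and 7.11 to 89.7 CPM in MaeaCsf1r-Cre libraries, and 9 of 9 tested were below 0, with a median of -0.89 and 0 called. C1qb, a complement component made by macrophages, was at 8.98, 3.79 and 5.37 CPM in control and at 0.0329, 0 and 0.474 CPM in MaeaCsf1r-Cre replicates 1, 2 and 3. The part of these cell types in the values of the 8 genes was not tested.

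Markers of the other lineages gave no list in which a gene passed. Granulocyte markers summed to 27.9 to 219 CPM in control and 4.58 to 114 CPM in MaeaCsf1r-Cre libraries, and erythroid markers to 804 to 3840 and 1610 to 4130 CPM. Megakaryocyte markers summed to 283 to 1280 and 338 to 687 CPM, and B cell markers to 17.0 to 28.0 and 13.6 to 24.7 CPM. Mast cells, which depend on Kit, and basophils had summed markers of 4.85 to 6.07 and 4.11 to 20.7 CPM. Fcer1a was at 0.88, 0.379 and 0.584 CPM in control and at 4.91, 4.08 and 1.22 CPM in MaeaCsf1r-Cre replicates 1, 2 and 3. It was higher in every MaeaCsf1r-Cre library, as 2.49% of all genes tested were. Its log2 fold change was 1.34 (SE 0.38, limma adjusted p = 0.967), and Cpa3, the other marker tested, overlapped between the groups. T and NK cell markers summed to 53.5 to 77.5 and 49.5 to 109 CPM with Cd3g at 0 in every library, and dendritic cell markers to 20 to 38.9 and 14.7 to 41.9 CPM with Siglech at 0 in every library.

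The Cbl ligases lay close together in the 2 genotypes. Cbl, which is recruited to activated Kit and Flt3, was at 30.5, 34.5 and 35.5 CPM in control replicates 1, 2 and 3 and at 23.2, 30.3 and 31.1 CPM in MaeaCsf1r-Cre replicates 1, 2 and 3. MaeaCsf1r-Cre replicate 1 was well below the other libraries, and replicate 3 was above control replicate 1. The means were 33.5 ± 2.61 and 28.2 ± 4.33 CPM (SD, n = 3 each), with an estimated log2 fold change of -0.25 (SE 0.16, 95% interval -0.62 to 0.12, limma adjusted p = 0.967). Without MaeaCsf1r-Cre replicate 1 it was -0.12.

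Cblb, the paralogue best known for restraining T cell receptor signalling, was at 15.1, 16.8 and 20.7 CPM in control replicates 1, 2 and 3 and at 15.5, 16.7 and 21.5 CPM in MaeaCsf1r-Cre replicates 1, 2 and 3. Same-numbered libraries were nearly level, with log2 differences of 0.03, -0.01 and 0.05. The log2 fold change was 0.02 (SE 0.19, 95% interval -0.42 to 0.47, limma adjusted p = 0.992), and blocking by replicate number narrowed the interval to -0.28 to 0.33.

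The ratio of Cblb to Cbl was -0.97, -0.99 and -0.75 on the log2 scale in control replicates 1, 2 and 3 and -0.56, -0.82 and -0.51 in MaeaCsf1r-Cre replicates 1, 2 and 3. It was higher in the MaeaCsf1r-Cre library of 3 of 3 pairs, but control replicate 3 lay above MaeaCsf1r-Cre replicate 2. The means differed by 0.27 (exact permutation test, two-sided, p = 0.2, 0.45 adjusted over 3 ratios). Paired by replicate number the exact p was 0.25, the smallest that 3 pairs allow.

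Grb2, the adaptor that links phosphorylated receptors to Sos and Ras and also carries Cbl to them, was at 117, 144 and 137 CPM in control replicates 1, 2 and 3 and at 109, 131 and 136 CPM in MaeaCsf1r-Cre replicates 1, 2 and 3. The libraries of replicate 1 were the lowest of each group. The means were 132 ± 14.1 and 125 ± 14.1 CPM (SD, n = 3 each), with an estimated log2 fold change of -0.08 (SE 0.14, 95% interval -0.39 to 0.24, limma adjusted p = 0.973).

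Of the phosphatases, Ptpn11, which is required for full Ras signalling from these receptors, was at 54.5, 53.2 and 66.1 CPM in control replicates 1, 2 and 3 and at 49.1, 57.3 and 49.8 CPM in MaeaCsf1r-Cre replicates 1, 2 and 3. The pairs did not share a direction, with log2 differences of -0.15, 0.11 and -0.40. The log2 fold change was -0.15 (SE 0.14, 95% interval -0.47 to 0.18, limma adjusted p = 0.967), and without control replicate 3 it was -0.05.

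Ptpn6, which dephosphorylates Kit and other haematopoietic receptors and dampens their signals, was at 110, 154 and 132 CPM in control replicates 1, 2 and 3 and at 97.0, 129 and 135 CPM in MaeaCsf1r-Cre replicates 1, 2 and 3. Here too the libraries of replicate 1 were the lowest of each group, and replicate 3 was level between the genotypes. The log2 fold change was -0.13 (SE 0.18, 95% interval -0.54 to 0.27, limma adjusted p = 0.967). The ratio of Ptpn6 to Ptpn11 averaged 1.17 ± 0.30 in control and 1.18 ± 0.23 in MaeaCsf1r-Cre libraries on the log2 scale (SD, n = 3 each), a difference of 0.01 (exact permutation test, two-sided, p = 1.0, also 1.0 adjusted over 3 ratios).

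Lyn, a Src-family kinase that binds activated Kit and also phosphorylates docking sites for inhibitory phosphatases, was at 56.0, 65.6 and 64.0 CPM in control replicates 1, 2 and 3 and at 46.2, 65.5 and 60.9 CPM in MaeaCsf1r-Cre replicates 1, 2 and 3. Only MaeaCsf1r-Cre replicate 1 lay outside the control range. The log2 fold change was -0.11 (SE 0.16, 95% interval -0.48 to 0.26, limma adjusted p = 0.967), and without that library it was 0.03.

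MaeaCsf1r-Cre replicate 1 was the lowest library for 7 of the 8 genes, Cblb being the exception, and it was the lowest for 30.3% of all genes tested. Control replicate 2 was the highest for Kit, Flt3, Grb2, Ptpn6 and Lyn, 5 of the 8, and for 26.7% of all genes. MaeaCsf1r-Cre replicate 1 was also the deepest library, at 60866000 reads, and had the lowest summed HSC markers. The part of depth or HSC purity in its low values was not tested. Without it, the log2 fold change of Kit was -0.27 and that of Flt3 -0.87, and those of Grb2, Ptpn6 and Lyn came to 0.02, 0.01 and 0.03.

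**Figure D3:**
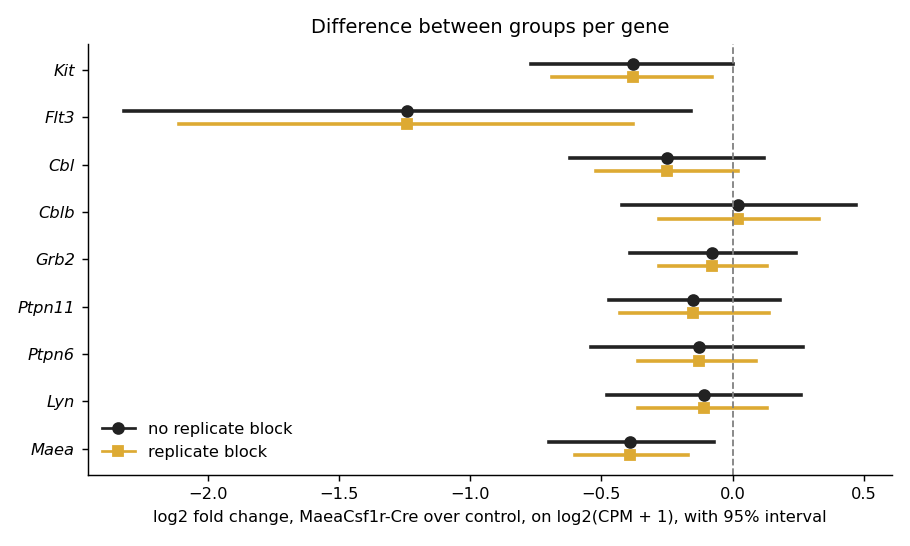
Log2 fold change of MaeaCsf1r-Cre over control HSCs on log2(CPM + 1), with 95% intervals from limma without (black circles) and with (yellow squares) a replicate block, for the 8 genes and Maea, 3 libraries a group. The intervals of Flt3 and Maea lie below 0 in both fits and that of Kit only with the block, before any adjustment for the number of genes tested.

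The genes whose levels followed the receptors most closely across the 6 libraries were picked by the root mean square difference of centred log2(CPM + 1) profiles, among 9215 genes averaging at least 10 CPM. For Kit these were P2rx4, Rbms2, Gltscr1, Zbtb38 and Btg1, with differences of 0.0318, 0.0370, 0.0388, 0.0502 and 0.0538, where Kit itself varied by 0.266 around its mean. P2rx4, an ATP-gated ion channel, was at 25.4, 32.2 and 27.0 CPM in control and 17.7, 21.2 and 24.9 CPM in MaeaCsf1r-Cre replicates 1, 2 and 3. Btg1, an antiproliferative gene, was at 41.2, 50.0 and 39.5 CPM in control and 27.2, 34.2 and 41.9 CPM in MaeaCsf1r-Cre replicates 1, 2 and 3. All 5 shared the peak of Kit in control replicate 2 and its trough in MaeaCsf1r-Cre replicate 1.

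For Flt3 the nearest genes were H2-Ob, Sytl1, Tagap, Hk3 and Txnip, with differences of 0.306, 0.315, 0.315, 0.349 and 0.350 against 0.889 for Flt3 around its mean. They followed it less closely than those of Kit did theirs. H2-Ob, the beta chain of the MHC class II modulator H2-O, was at 23.1, 28.6 and 13.5 CPM in control and 4.28, 10.3 and 17.3 CPM in MaeaCsf1r-Cre replicates 1, 2 and 3. Txnip, the thioredoxin-interacting protein that restrains glucose uptake, was the most abundant of them at 370, 555 and 280 CPM in control and 127, 309 and 311 CPM in MaeaCsf1r-Cre replicates 1, 2 and 3. In all 5, MaeaCsf1r-Cre replicate 1 was the lowest library and control replicate 3 the lowest control. The profiles are descriptions over 6 libraries that share depth and composition within a library.

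**Figure D4:**
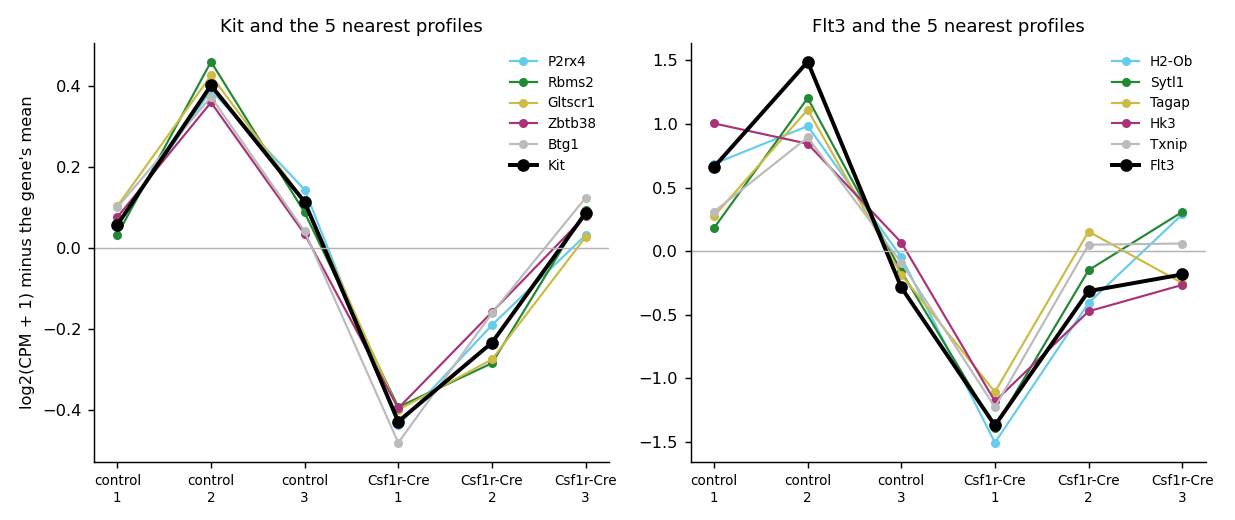
Centred log2(CPM + 1) of Kit (left) and Flt3 (right) in black, each with the 5 genes of nearest profile in colour, across the 6 HSC libraries; each gene's mean is set to 0. The Kit group lies within 0.0538 of Kit by root mean square and the Flt3 group within 0.350 of Flt3, and MaeaCsf1r-Cre replicate 1 is lowest for every gene drawn.

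Around the 8 genes, 11 lists of the receptor pathway held 115 genes, the 8 included. Of these 104 were tested, and 0 passed an adjusted p of 0.05 in either direction, without or with the replicate block. At an unadjusted p under 0.05 there were 12 lower and 1 higher of the 104, where 3.19% of all genes tested were lower and 3.99% were on either side. The estimate was below 0 for 78 of the 104, and the groups were separate for 12 genes in the lower and 2 in the higher direction, where 6.06% and 2.49% of all genes were. The median log2 fold change was -0.15, against -0.06 over all genes tested.

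Among type III receptors, Csf1r, the receptor whose promoter drives the Cre, was at 7.89, 3.39 and 2.31 CPM in control replicates 1, 2 and 3 and at 0.369, 2.18 and 0.141 CPM in MaeaCsf1r-Cre replicates 1, 2 and 3. It was lower in every MaeaCsf1r-Cre library, with a log2 fold change of -1.57 (SE 0.49, limma adjusted p = 0.967). Csf1r is also a macrophage gene. The macrophage sum was 7.11, 12.5 and 89.7 CPM in MaeaCsf1r-Cre replicates 1, 2 and 3, so the library with the highest sum had the lowest Csf1r. Pdgfrb averaged 25.5 ± 11.1 CPM in control and 28.7 ± 17.0 CPM in MaeaCsf1r-Cre libraries, and Pdgfra was at 0.0903 CPM or less in all 6. The median of the 4 tested receptors, Kit and Flt3 among them, was -0.81.

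The ligands were at low levels in HSCs. Flt3l, the ligand of Flt3, averaged 4.22 ± 0.860 CPM in control and 6.01 ± 0.546 CPM in MaeaCsf1r-Cre libraries (SD, n = 3 each), higher in every MaeaCsf1r-Cre library. Its log2 fold change was 0.43 (SE 0.21, limma adjusted p = 0.967). Kitl, the ligand of Kit that marrow stroma is known to supply, was below the filter, at 0.455, 0.379 and 1.17 CPM in control and at 0.0329, 0 and 0.135 CPM in MaeaCsf1r-Cre replicates 1, 2 and 3. Csf1 averaged 7.71 ± 3.10 and 4.91 ± 2.28 CPM.

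Of the Cbl family and its partners 9 of 10 genes were tested, with a median of -0.17 and 7 below 0. Cblc, the family member of epithelia, was listed at 0 in every library. Sla2, an adaptor that brings Cbl to antigen receptors, averaged 45.6 ± 5.71 CPM in control and 37.2 ± 9.76 CPM in MaeaCsf1r-Cre libraries, and Cd2ap, which links Cbl to the endocytic machinery, 12.4 ± 1.75 and 10.5 ± 0.774 CPM.

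In the list of receptor sorting genes and other ligases, 14 of 15 genes were tested, 11 were below 0 and the median was -0.13. Nedd4, a HECT-domain ligase, was at 466, 521 and 563 CPM in control replicates 1, 2 and 3 and at 377, 343 and 453 CPM in MaeaCsf1r-Cre replicates 1, 2 and 3. It was lower in every MaeaCsf1r-Cre library, with a log2 fold change of -0.41 (SE 0.14, limma adjusted p = 0.967). Usp8, a deubiquitinase of the endosome, averaged 64.4 ± 1.58 and 50.8 ± 4.60 CPM (SD, n = 3 each) and was also lower in every MaeaCsf1r-Cre library, with a log2 fold change of -0.34 (SE 0.12, limma adjusted p = 0.967). Among this list the groups were separate in the lower direction for 4 of the 14 tested, where 6.06% of all genes tested were.

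The adaptors held 15 tested genes, of which 14 were below 0, with a median of -0.18. Grb10, an SH2 adaptor that binds Kit and the insulin receptor, was at 63.2, 70.7 and 88.6 CPM in control replicates 1, 2 and 3 and at 43.2, 47.7 and 63.0 CPM in MaeaCsf1r-Cre replicates 1, 2 and 3. Its groups were just separate, with a log2 fold change of -0.53 (SE 0.19, limma adjusted p = 0.967, and 0.166 with the block). Dok3, a docking protein that inhibits immune receptor signals, averaged 2.82 ± 0.292 and 1.51 ± 0.674 CPM (SD, n = 3 each).

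The 9 phosphatases, with 7 below 0, had a median of -0.15. Ptprj, a receptor phosphatase that acts on Flt3, averaged 65.8 ± 9.05 CPM in control and 50.0 ± 6.56 CPM in MaeaCsf1r-Cre libraries (SD, n = 3 each). Its groups overlapped, and the log2 fold change was -0.39 (SE 0.16, limma adjusted p = 0.967). The 8 tested Src-family kinases and their brakes had a median of -0.34. The genes of smallest p there were the low Yes1, at 5.59 ± 2.08 and 2.26 ± 1.69 CPM, and Fgr, at 2.36 ± 0.609 and 1.04 ± 0.666 CPM.

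Downstream cascades had medians near that of all genes tested. The 12 genes of the Ras and MAP kinase cascade had a median of -0.06 and the 14 of PI3 kinase, Akt and STAT one of -0.05. Map2k1 averaged 45 ± 11.2 CPM in control and 37.5 ± 2.57 CPM in MaeaCsf1r-Cre libraries, and Araf 52.4 ± 1.2 and 46.9 ± 5.56 CPM. Pik3r1, the regulatory subunit of PI3 kinase that binds Kit, averaged 85.5 ± 12.0 and 64.9 ± 12.7 CPM, and Pik3cg 113 ± 22.8 and 83.2 ± 17.9 CPM.

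The feedback and target genes had the widest range of estimates. Socs3, a cytokine-induced inhibitor of JAK-STAT signalling, was at 10.1, 11.3 and 4.59 CPM in control replicates 1, 2 and 3 and at 17.4, 39.3 and 18.0 CPM in MaeaCsf1r-Cre replicates 1, 2 and 3. It was higher in every MaeaCsf1r-Cre library, with a log2 fold change of 1.40 (SE 0.40, limma adjusted p = 0.967, and 0.141 with the block). Dusp6, the ERK phosphatase that MAP kinase signalling induces, was at 39.2, 57.8 and 51.9 CPM in control and at 20.1, 32.1 and 37.4 CPM in MaeaCsf1r-Cre replicates 1, 2 and 3. It was lower in every MaeaCsf1r-Cre library, with a log2 fold change of -0.74 (SE 0.25, limma adjusted p = 0.967, and 0.159 with the block). The 2 genes had opposite signs, and the list as a whole had 10 of 15 genes below 0 and a median of -0.15.

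**Figure D5:**
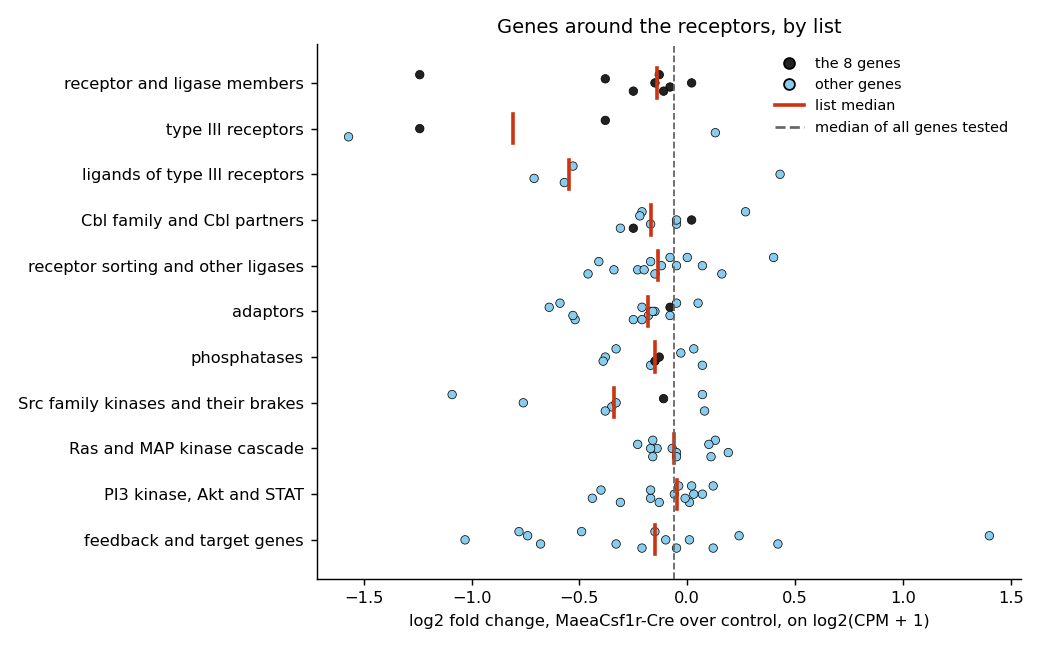
Log2 fold change of MaeaCsf1r-Cre over control HSCs on log2(CPM + 1) for each tested gene of the 11 lists, 3 libraries a group, with the 8 genes in black, other genes in light blue, list medians as red bars and the median of all genes tested, -0.06, as a dashed line. The medians of type III receptors (-0.81) and their ligands (-0.55) rest on 4 tested genes each, and those of the other lists lie between -0.34 and -0.05.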

How the data were processed

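The authors deposited a table of CPM with 1 column for each library and 0.0001 added to each value. Per the labels and the study's methods, 150-base single-end reads from SMART-Seq v4 and Nextera XT libraries were trimmed with Trim Galore, aligned to mm10 with STAR 2.5.3a, quantified to Ensembl release 83 transcripts and normalised in Partek Flow. The offset was subtracted. Of low values, 76.9 to 78.4% of a library lay within 0.05 of a whole read, so counts were not recovered; depth was read from these steps, and intervals and floors from it cover counting error only. Symbols were matched to GENCODE M21 of GRCm38, and exon length is that of merged basic protein-coding transcripts.

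The 12955 genes that reached 1 CPM in 3 or more libraries entered a two-sided limma fit (3.58.1, R 4.3.3) of log2(CPM + 1) with a mean-variance trend. P-values were adjusted by Benjamini-Hochberg over these genes, with 0.05 as the threshold. Ratios were tested by exact permutation over 20 labellings. Summaries were made in Python 3.11.15 (pandas 2.3.3, numpy 2.4.6) and figures in matplotlib 3.10.9. The fit was tested on simulated data with independent noise for each gene and library. Those data held neither the likeness of same-numbered libraries nor a relation to exon length, so the fit was not tested under these. Replicate numbers come from the sample labels. Across genes, deviations from the group mean correlated between same-numbered libraries at 0.627, 0.523 and 0.397, against -0.459 to -0.0538 for other pairs, so the number was also fitted as a block; genes are not independent replicates, and the sources do not state a pairing. Alternatives were a filter at 10 CPM or none, a pseudocount of 0.1, median-ratio and quantile rescaling, no trend, an exon-length correction (loess, span 0.5), the block, and each library left out.

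The 8 genes, the 11 pathway lists and the 10 marker lists were chosen with earlier results of these data known. Named by rule were the 8 genes, Maea, the 2 other genes of smallest p in each pathway list, the 5 nearest profiles of each receptor, and the first 3 markers of a list. The values of 1 gene that this rule names are not reported here. Libraries pooled 2 mice, and p-values measure the spread between pools.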

Additional observations from a re-analysis of the deposited data

How the results depend on the processing

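None of the 8 genes, and none of the pathway genes, passed the adjusted threshold under any of 15 alternatives. Of 120 estimates for the 8 genes, 111 kept their direction, and the 9 that turned were all near 0. Cblb was -0.07 without control replicate 1 and -0.11 without MaeaCsf1r-Cre replicate 3. Without MaeaCsf1r-Cre replicate 1, Grb2 was 0.02, Ptpn6 0.01 and Lyn 0.03. With the exon-length correction, with or without the replicate block, Grb2 and Ptpn11 were both 0.01, Kit was -0.23, Cbl -0.04 and Cblb 0.20; across genes, fold change and exon length had a Spearman's rho of -0.316. Leaving out a library moved Kit between -0.52 and -0.27, Flt3 between -1.70 and -0.81, Cblb between -0.11 and 0.14, Grb2 between -0.17 and 0.02, Ptpn11 between -0.22 and -0.05, Ptpn6 between -0.26 and 0.01 and Lyn between -0.21 and 0.03.

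The difference in the ratio of Ptpn6 to Ptpn11 was -0.02 after quantile normalization and between -0.11 and 0.18 with a library left out; the other ratios kept their direction, Flt3 to Kit between -1.28 and -0.53 and Cblb to Cbl between 0.22 and 0.37.

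Over all genes 1 was called. It was 10 with no filter, 0 with a filter at 10 CPM (302 at an unadjusted p under 0.05), 0 to 3 with a library left out, and 17 with the length correction and the replicate block. The replicate block alone raised the genes at an unadjusted p under 0.05 from 517 to 1805, with 2 of the 8 genes (Kit and Flt3) among 13.9% of all genes, and changed no other call. Of genes at that p, 104 were higher and 413 lower; median-ratio rescaling gave 198 and 305, and quantile normalization 219 and 301. Noise from amplification and library preparation was not measured.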
